A study of Mus musculus with 5 samples.

Results

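R-loop signal was set against RNA polymerase II (RNAPII) in primary mouse mammary epithelial cells by comparing all 10031 peaks of the DRIP-seq list with all 7718 peaks of the RNAPII ChIP-seq list. These 17749 peaks were taken whole, with no choice by position or score, from the 32456 peaks of the 4 lists of the series. The other 2 lists, for NELF-A and NELF-B, which are subunits of the negative elongation factor (NELF), served as a further readout. The cells came from thoracic and inguinal glands of virgin mice of mixed strain, 6 to 8 weeks old, and no genotype, treatment or time course distinguished the lists. Chromatin for RNAPII was sonicated and immunoprecipitated with an antibody against RNA Pol II. Genomic DNA for DRIP was digested and immunoprecipitated with an antibody against R-loops, so ends of DRIP fragments can depend on where the DNA was cut. RNAPII and DRIP libraries were amplified with 15 PCR cycles. NELF-A and NELF-B libraries had 18 cycles and 0.2 ng of ChIP DNA, against 1 ng for RNAPII. The part of these differences in the NELF shares was not tested. The RNAPII and DRIP titles each name 2 libraries, and 1 list was deposited for both together. There is thus no spread between replicates, and no p-value is given. Intervals of 95% cover counting error alone, over peaks unless stated otherwise. DRIP-seq after RNase H, the control for R-loop signal, was not analysed here. Sequencing depth is unknown from these lists.

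R-loops form when nascent RNA pairs again with its DNA template behind a transcribing polymerase and leaves the other DNA strand unpaired. They are known at gene starts and gene ends, where RNAPII pauses or terminates, and over highly transcribed gene bodies. RNase H degrades the RNA of the hybrid. NELF holds RNAPII in a paused state shortly after initiation, and NELF-B (COBRA1) is known to bind the tumour suppressor BRCA1. The lists name no genes, and the gene table at hand is of another build (GRCm38), so sites are given by their position in mm9 and the mammary identity of the cells was not checked against marker genes.

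Both lists covered a similar, very small part of the genome. RNAPII peaks covered 13.4 Mb, or 0.521% of the 2570 Mb between the first and last listed base of each chromosome, and DRIP peaks covered 10.9 Mb, or 0.423%. The authors' score is a whole number per peak with no stated unit. It was used only to rank peaks within 1 list, since wider peaks had higher scores (Spearman's rho over the peaks of a list was 0.938 for DRIP and 0.977 for RNAPII, given as a description). A DRIP peak was called on RNAPII when the peaks shared 1 bp or more, flanking when the nearest RNAPII edge lay within 5 kb, and distant otherwise. In 17 regions, called of extra-high signal here, at least 3 lists placed a peak that was among their 10 highest scores or in their top 1% for score per base. They held 27 DRIP peaks, all of them on RNAPII.

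The DRIP list was split between sites on or close to RNAPII and a larger set away from it. On RNAPII lay 2315 DRIP peaks, or 23.1% (95% interval 22.3 to 23.9%). A further 1646, or 16.4% (15.7 to 17.1%), were flanking, and 6070, or 60.5% (59.6 to 61.5%), were distant. The split between on and flanking moved with how wide peaks are drawn. When all peaks were given 500 bp around their centre, 5.83% were on RNAPII and 31.1% flanking, while 63.0% were distant. The distant peaks had a median gap to RNAPII of 86.8 kb, and 550 DRIP peaks lay over 1 Mb from any RNAPII peak. Being wider, the peaks on RNAPII made up 38.7% of all DRIP-covered bases, against 46.3% for distant peaks.

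DRIP peaks on RNAPII were mostly parts of an RNAPII peak or ran over its edge. Wholly within an RNAPII peak lay 1134, or 49.0% (46.9 to 51.0%) of those on RNAPII. Another 940, or 40.6% (38.6 to 42.6%), crossed an edge without enclosing a whole RNAPII peak, and 47 of these reached into more than 1 RNAPII peak. The remaining 241, or 10.4% (9.23 to 11.7%), enclosed at least 1 whole RNAPII peak. The enclosing peaks were the widest, with a median of 3250 bp (2750 to 3500 bp), against 1500 bp (1250 to 1500 bp) for those crossing an edge and 750 bp for those within. Identical ends in both lists were seen for 24 DRIP peaks.

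The flanking peaks lay on both sides of RNAPII in near-equal numbers. The nearest RNAPII peak was on the lower-coordinate side of 833 and on the higher-coordinate side of 813. The lists carry no strand, so upstream and downstream could not be separated. The median gap was 1250 bp, and 259 flanking peaks touched an RNAPII peak without a gap. For 594 of the flanking peaks, 36.1% (33.8 to 38.4%), the nearest RNAPII peak also carried a DRIP peak of its own. Between a pair of RNAPII peaks, each within 5 kb, lay 164 flanking peaks, or 9.96% (8.61 to 11.5%).

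DRIP cover was highest inside RNAPII peaks, and outside it fell with distance from the edge. Over the whole span DRIP covered 4.23 bp per kb. Inside RNAPII it covered 219 bp per kb, and within 1 kb outside the edge 96.99 bp per kb. From 2 to 5 kb outside it covered 23.2 bp per kb, from 5 to 10 kb 11.5, from 10 to 50 kb 5.16 and from 50 to 100 kb 2.83 bp per kb. Beyond 100 kb, which is 73.0% of the span, it covered 1.22 bp per kb, so cover inside RNAPII was 179.7-fold higher. Both sides were close at each distance, for example 110.3 bp per kb on the lower-coordinate side and 121.9 on the higher-coordinate side in the first 250 bp. The difference between inside and the nearest 1 kb depended on how peak ends were drawn. With every peak of both lists set to 500 bp around its centre, cover was 43.9 bp per kb inside RNAPII and 51.9 bp per kb in the first 1 kb outside, a reversed order. Under that setting cover inside RNAPII was 57.4-fold that beyond 100 kb.

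**Figure D1:**
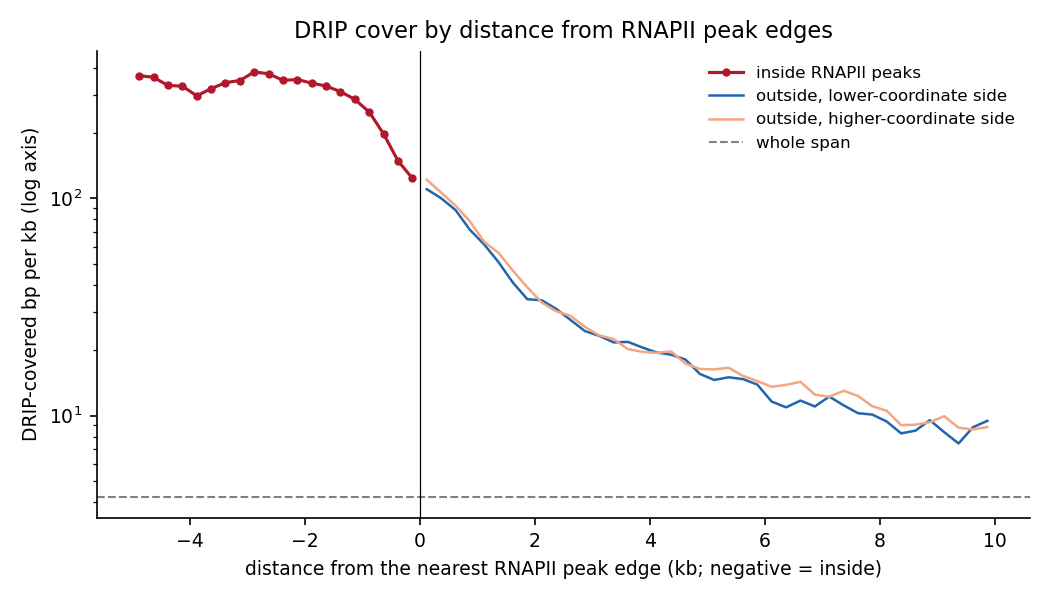
DRIP-covered bp per kb (log axis) in steps of 250 bp from the nearest RNAPII peak edge, inside (negative distance) and outside (each side its own line); the dashed line is the whole span at 4.23 bp per kb. Cover is highest inside RNAPII and falls on both sides, staying above the dashed line to 10 kb.

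Inside RNAPII peaks, cover rose from the edge inwards. In the outermost 250 bp DRIP covered 123.8 bp per kb, a value close to the 116.2 bp per kb of the first 250 bp outside. From 500 bp to 1 kb inside it covered 217.5 bp per kb, from 1 to 2 kb 310.6 and from 2 to 5 kb 349.3 bp per kb. Only wide RNAPII peaks have bases that deep, so this rise mixes position with peak width. Within 1 width class the picture was flatter. In RNAPII peaks of 1.75 to 4.75 kb, DRIP covered on average 23.9% of the outer 10% at both ends and 23.9% of the steps next to the centre. In those of 1000 to 1500 bp it covered 11.3% at the ends and 9.15% at the centre. In those of 5 kb and more it covered 26.5% at the ends and 35.4% at the centre. Peaks are listed on a 250 bp grid, so in the class of 1000 to 1500 bp each 10% part is narrower than 1 grid step.

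Wide RNAPII peaks overlapped DRIP more often, and a larger share of their bases was covered. Of all RNAPII peaks, 22.2% (21.3 to 23.1%) overlapped DRIP and 21.9% of RNAPII bases lay under DRIP. Among RNAPII peaks of 500 to 750 bp, 7.54% (6.64 to 8.56%) overlapped DRIP and 5.97% of their bases were covered. The shares were 17.2% (15.8 to 18.7%) and 10.6% for 1000 to 1500 bp, and 43.3% (40.9 to 45.7%) and 25.2% for 1.75 to 4.75 kb. Among the 409 RNAPII peaks of 5 kb and more, 308 overlapped DRIP, or 75.3% (70.9 to 79.2%), and 34.1% of their bases were covered. A wider peak has more bases that a DRIP peak can meet, and the part of length in these shares was not tested. With every peak set to 500 bp, DRIP overlapped 7.54% of RNAPII peaks and 4.42% of their bases.

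The fraction of an RNAPII peak that DRIP covered varied widely. Among the 1712 RNAPII peaks with DRIP the median covered fraction was 55.2% (50 to 60%). DRIP covered under 25% of the peak in 263, from 25 to under 50% in 445, from 50 to under 75% in 423 and from 75 to under 100% in 226, and it covered 355 whole. Of those covered whole, 119 were 500 to 750 bp wide and 8 were 5 kb or wider. Peaks of 5 kb and more with DRIP had a median covered fraction of 41.4% (37.0 to 45.0%). They often held several DRIP peaks: 97 held 2, 42 held 3 and 59 held 4 or more, up to 10.

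**Figure D2:**
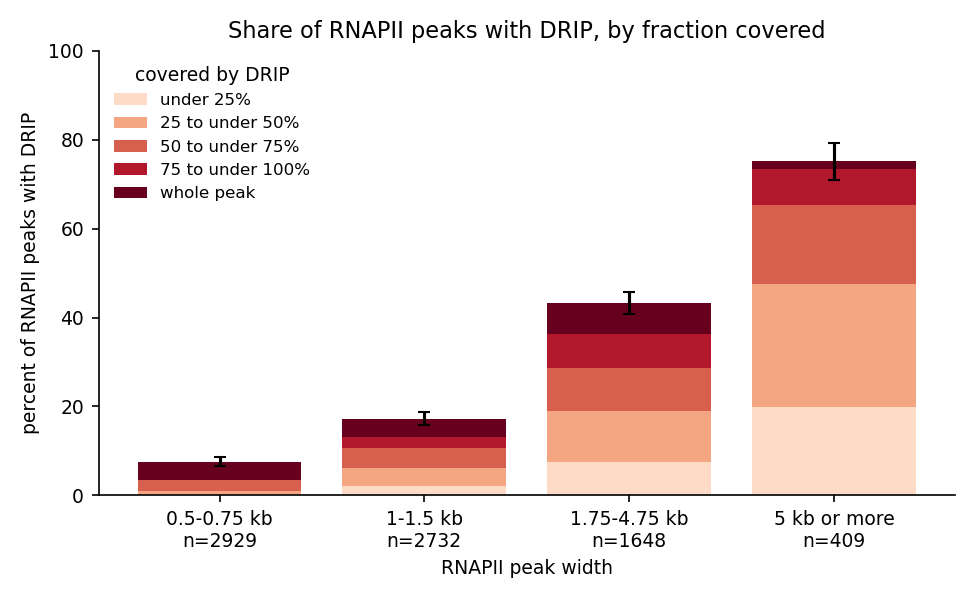
Percent of RNAPII peaks that overlap DRIP in 4 classes of RNAPII width, with the covered fraction as shades and 95% Wilson intervals as bars. The share rises from 7.54% in the narrowest to 75.3% in the widest class, in which few peaks are covered whole.

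Within width classes, RNAPII peaks of higher score per base held DRIP more often or as often within counting error, and they were also wider. The RNAPII list was cut into 3 classes of equal size by score per 250 bp. Among peaks of 1000 to 1500 bp, DRIP overlapped 14.2% (11.7 to 17.2%) of the lowest class and 22.3% (19.8 to 24.98%) of the highest, with median widths of 1000 and 1250 bp. Among those of 1.75 to 4.75 kb the shares were 28.4% (21.03 to 37.2%) of 116 and 47.97% (45.05 to 50.9%) of 1111 peaks, with median widths of 2000 and 2250 bp. Among those of 500 to 750 bp they were 8.06% (6.90 to 9.39%) and 15.2% (9.29 to 23.9%), with 92 peaks in the highest class, intervals that overlap and median widths of 500 and 750 bp. Score per base and width were thus not separated in any class. In the widest class 1 peak fell in the lowest score class, so no comparison was made there.

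RNAPII peaks with a DRIP peak nearby but not on them resembled in width and score those with no DRIP around. For the 1363 RNAPII peaks with DRIP within 5 kb only, the median score was 231 (220 to 239) and the median width 1000 bp. For the 4643 with none within 5 kb they were 225 (220 to 230) and 1000 bp, and for the 1712 with DRIP on them 605.5 (576 to 644) and 2000 bp. They differed in NELF-A, which overlapped 52.2% (49.6 to 54.9%) of RNAPII peaks with DRIP only nearby, 76.4% (75.1 to 77.6%) of those with none and 77.3% (75.3 to 79.3%) of those with DRIP on them. NELF-B overlapped 24.8% (22.6 to 27.2%), 37.3% (35.9 to 38.7%) and 51.4% (49.0 to 53.8%) in the same order. These classes of RNAPII peaks also differed in RNAPII neighbours. Another RNAPII peak lay within 5 kb of 56.9% (54.2 to 59.5%), 22.8% (21.6 to 24.0%) and 49.4% (47.1 to 51.8%) in that order. Among RNAPII peaks with no other within 10 kb, NELF-A overlapped 88.3% (85.2 to 90.8%) of 511, 88.5% (87.4 to 89.6%) of 3250 and 95.3% (93.5 to 96.6%) of 762. Among these isolated peaks the share with DRIP only nearby lay within the interval of that with none, and below that with DRIP on the peak.

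Around isolated RNAPII peaks, DRIP outside the peak was far more frequent where DRIP was also on it. Of 4523 RNAPII peaks with no other RNAPII within 10 kb, 762 had DRIP on them, and 617 of these also had DRIP-covered bases within 5 kb outside, or 80.97%. Of the 3761 isolated peaks without DRIP it was 503, or 13.4%. A DRIP peak that crosses an RNAPII edge counts on both sides of that edge, so these counts are not independent of the crossing peaks described above. DRIP lay on 1 side only of 813 isolated RNAPII peaks and on both sides of 307. Among isolated peaks with DRIP on them, the share with DRIP also outside fell with RNAPII width. It was 92.3% at 500 to 750 bp, 89.6% at 1000 to 1500 bp and 78.7% at 1.75 to 4.75 kb. At 5 kb and more, 86 of 108 had DRIP on them, and 44 of those 86, or 51.2%, also had it outside. The part of edge-crossing peaks in these shares was not separated.

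DRIP peaks on RNAPII were wider and scored higher than those at any distance from it. The median width was 1250 bp on RNAPII, 750 bp both up to 1 kb and from 1 to 5 kb away, and 500 bp in each class further out. The median score was 103 (98 to 112) on RNAPII, 58 (57 to 59) up to 1 kb away and 58 (57 to 59) from 1 to 5 kb. It was 46 (43 to 57) from 5 to 10 kb, 44 (43 to 45) from 10 to 50 kb, 43 (42 to 44) from 50 to 100 kb and 44 (44 to 45) beyond 100 kb. The lowest score in the list was 38, so most distant peaks sat close to the floor. Beyond 5 kb distance made little difference to either measure. Peaks of 3 kb or more made up 17.6% of those on RNAPII and 2.37% of the distant ones. Of all 626 such wide DRIP peaks, 65.2% (61.4 to 68.8%) lay on RNAPII.

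**Figure D3:**
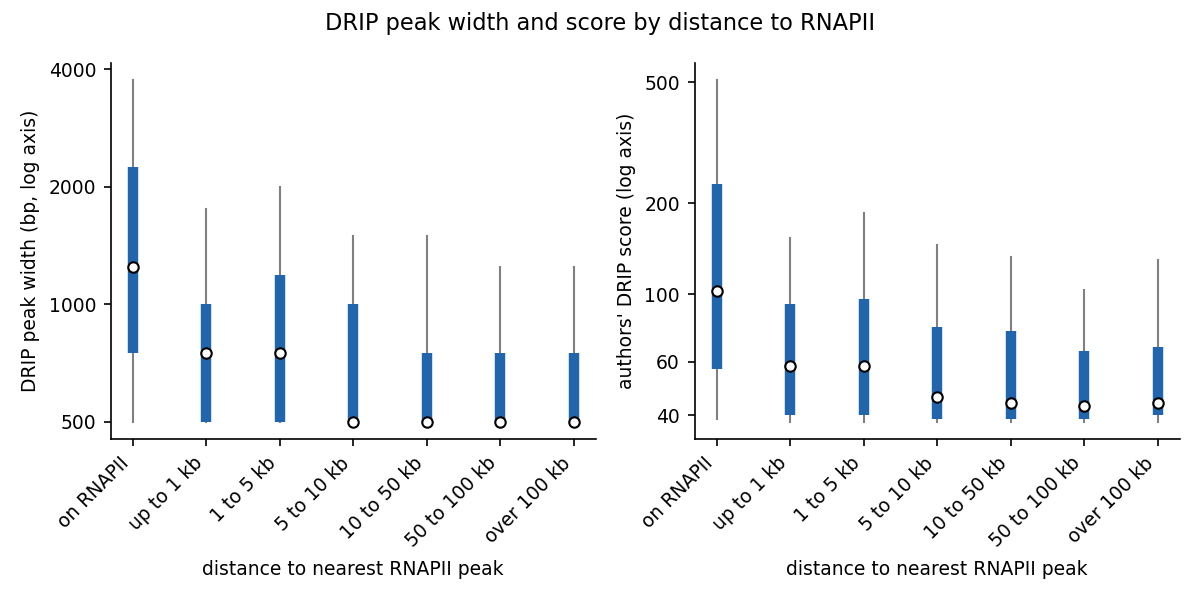
DRIP peak width in bp (left) and the authors' DRIP score (right), both on log axes, by distance to the nearest RNAPII peak; circles are medians, thick bars the middle 50% and thin lines the 10th to 90th percentile of peaks. The class on RNAPII, with medians of 1250 bp and 103, stands above all others.

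At equal width the scores were close, with higher medians on RNAPII among the wider peaks. DRIP peaks of 500 bp had a median score of 40 on RNAPII, flanking and distant alike. Those of 1.25 to 1.5 kb had 119 (117 to 120) on RNAPII, 113.5 (111 to 117) flanking and 117 (114 to 119) distant. For 1.75 to 2.25 kb the medians were 185 (180 to 190), 174.5 (172 to 179) and 172 (168 to 179). For 2.5 to 4.75 kb they were 367 (345 to 383), 300.5 (279 to 320) and 310 (293 to 346). For 5 kb and more they were 889.5 (807 to 1016), 711 (506 to 1039) and 760 (600 to 852), with 14 flanking and 35 distant peaks. These classes are broad enough for widths to differ within them. Over all peaks the median score on RNAPII was 2.34 times the distant one, while at these widths it differed by far less. Width itself went with position: 11.4% (10.5 to 12.3%) of 500 bp DRIP peaks lay on RNAPII, 37.0% (34.0 to 40.1%) of those of 1.25 to 1.5 kb and 72.9% (66.0 to 78.9%) of those of 5 kb and more. A wide DRIP peak also meets an RNAPII peak more readily by its length, and this part was not separated.

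Ranked by score, DRIP moved from mostly distant to mostly on RNAPII. Of the 4264 DRIP peaks scored 38 to 44, 11.5% (10.6 to 12.5%) lay on RNAPII and 72.5% (71.2 to 73.9%) were distant. Of the 311 scored 500 or more, 75.9% (70.8 to 80.3%) lay on RNAPII and 18.6% (14.7 to 23.4%) were distant. The median width was 500 bp in the first of these classes and 5000 bp in the second, so score was not separated from width here. The flanking share was between 15.97% and 18.7% in the 4 classes up to a score of 199 and 5.47% (3.44 to 8.58%) in the highest. Seen from RNAPII, all 10 RNAPII peaks of highest score and 91 of the first 100 overlapped DRIP. Score rose with width in the RNAPII list too, and the part of width was not separated.

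**Figure D4:**
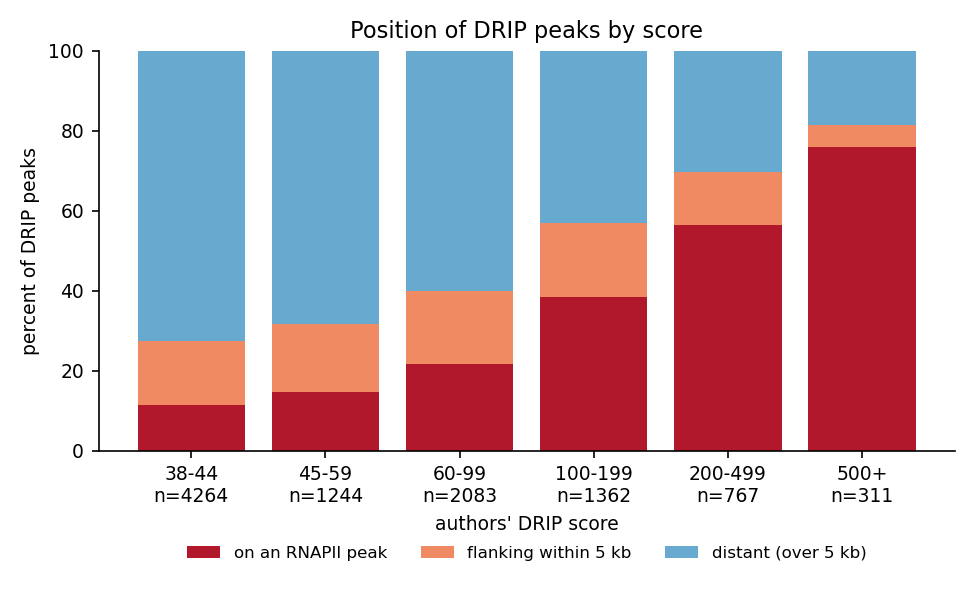
Percent of DRIP peaks on RNAPII, flanking within 5 kb and distant, in 6 classes of the authors' DRIP score, with the number of peaks under each bar. The share on RNAPII rises from 11.5% in the lowest class to 75.9% in the highest, and the median DRIP width from 500 to 5000 bp.

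NELF was more frequent at DRIP peaks on RNAPII than at the others, but NELF-A was also frequent at RNAPII peaks without DRIP. NELF-B was at 51.4% of RNAPII peaks with DRIP on them and at 37.3% of those with none within 5 kb. Of all DRIP peaks, 15.9% (15.2 to 16.7%) overlapped NELF-A and 7.68% (7.17 to 8.21%) NELF-B. NELF-A overlapped 59.1% (57.1 to 61.1%) of DRIP peaks on RNAPII, 13.3% (11.1 to 15.8%) of those up to 1 kb away and 1.56% (0.913 to 2.65%) of those from 1 to 5 kb. Of distant DRIP peaks it overlapped 1.81% (1.51 to 2.18%), a share that was 4.63% when peaks within 1000 bp counted as overlapping and 4.25% among the upper 50% of peaks by score. NELF-B overlapped 30.5% (28.6 to 32.4%), 1.23% (0.670 to 2.25%), 0.719% (0.330 to 1.56%) and 0.791% (0.597 to 1.05%) for DRIP peaks on RNAPII, up to 1 kb away, from 1 to 5 kb away and distant. On RNAPII, NELF-A was at 47.4% (44.5 to 50.4%) of DRIP peaks lying wholly within, and at 71.1% (68.1 to 73.9%) of those crossing an edge. The crossing peaks were wider, and the shares were not compared at equal width.

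The highest-score DRIP peaks of each position class were broad sites. Wholly within RNAPII the first was on chromosome 17 from 39979751 to 39986250, with identical ends in the RNAPII list, a DRIP score of 8366 and an RNAPII score of 8185. It is a region of extra-high signal. The next lay on chromosome 1 from 36364251 to 36380500, with a DRIP score of 3845. It took 16250 bp of an RNAPII peak of 21000 bp, which all DRIP peaks together covered to 79.8%. The third, on chromosome 7 from 29156001 to 29167250 with 3743, covered 81.8% of an RNAPII peak of 13750 bp. NELF-A and NELF-B overlapped all 3.

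Sites crossing an RNAPII edge or enclosing RNAPII differed in how much of the polymerase peak they took. The first of the crossing class, on chromosome 11 from 83079251 to 83085250, scored 4863 and shared only 750 of its 6000 bp with an RNAPII peak of 1500 bp. The second, on chromosome 8 from 11004001 to 11015000 with 2020, covered the last 6000 bp of an RNAPII peak of 29250 bp. The third, on chromosome 12 from 56587001 to 56595250 with 1964, shared 7500 bp with an RNAPII peak of 12250 bp. All DRIP peaks together covered 65.3% of that RNAPII peak. Among enclosing peaks, the 69750 bp peak on chromosome 11 from 3030501 to 3100250 took in 12 RNAPII peaks, and 63250 of its bases lay under them. The 39000 bp peak on chromosome 9 from 2999751 to 3038750 took in 10, which made up 8250 of its bases. Both are regions of extra-high signal. The third, scored 3875, lay on the X chromosome from 166434501 to 166447250 and held 1 RNAPII peak of 1.75 kb that starts at the same base.

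Of the 6 highest-score DRIP sites named off RNAPII, 3 flanking and 3 distant, 1 carried NELF. The first flanking peak, scored 2377, was on chromosome 4 from 118218501 to 118224500, 2.25 kb from an RNAPII peak of 500 bp whose score of 108 is near the RNAPII floor of 104. The second, on chromosome 11 from 3025501 to 3030500 with 1095, overlapped NELF-A and NELF-B and touches the large enclosing peak just described. The third, on chromosome 3 from 87949251 to 87956750 with 1039, lay 250 bp beyond the end of a 7000 bp RNAPII peak. That RNAPII peak was itself covered to 42.9% by DRIP.

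Among distant DRIP peaks, the first was on the X chromosome from 166577501 to 166633000, scored 11510 and 141.2 kb from RNAPII. The others lay close together on chromosome 6. The peak from 47687001 to 47717000 scored 4944, and that from 47614001 to 47637250 scored 3654. They were 21.25 kb and 68.25 kb from the nearest RNAPII peak.

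The RNAPII peaks with most DRIP were long domains, and some long domains had none. The largest covered length was 28.0 kb on chromosome 8, in the RNAPII peak from 86720751 to 86755250, which is 81.2% of it in 5 DRIP peaks. RNAPII peaks on chromosome 3 from 88279501 to 88307750, on chromosome 5 from 32434751 to 32463750 and on chromosome 10 from 79515751 to 79539000 were covered to 83.2%, 71.6% and 89.2%. The RNAPII peak of highest score, on chromosome 19 from 5814251 to 5850750, was covered to 54.1% by 8 DRIP peaks. Outside regions of extra-high signal, the highest-score RNAPII peak covered whole was a 7000 bp peak on chromosome 15 from 80084751 to 80091750, scored 4734.

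RNAPII peaks of high score without DRIP on them or within 5 kb were led by a 19250 bp peak on chromosome 2 from 117937251 to 117956500. Its score of 11311 ranked 39 in the list, and the nearest DRIP peak was 770 kb away. A peak with a score of 10431 followed on chromosome 18 (60963001 to 60981750), then 1 with 8961 on chromosome 2 (155970751 to 155997250). The fourth scored 7830 on chromosome 11 (99003001 to 99017250) and the fifth 6942 on chromosome 10 (61955251 to 61972000). For these the nearest DRIP peak was 10.5 to 34 kb away. NELF-A overlapped 4 of the 5, all but the second on chromosome 2. Such peaks were a minority: of the 409 RNAPII peaks of 5 kb and more, 67 had no DRIP within 5 kb, or 16.4% (13.1 to 20.3%).

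DRIP and RNAPII were dense in the same parts of the genome. In 2586 bins of 1 Mb, 1391 held peaks of both lists, 493 held DRIP only, 183 held RNAPII only and 519 held neither. Bins without RNAPII had a median of 0 DRIP peaks, and 51.3% (48.2 to 54.4%) of the 1012 had none. The median DRIP count was 1 in bins with 1 RNAPII peak, 3 with 2 to 3, 5 with 4 to 7, 9 with 8 to 15 and 18 with 16 or more. None of the 318 bins with 8 or more RNAPII peaks lacked DRIP, a count of 0 that allows a share of up to 0.943% (3 counts of the total, for counting error only). These bins were 12.3% of all bins and held 52.1% of RNAPII and 41.1% of DRIP peaks. Spearman's rho between both counts was 0.706 over bins, and within single chromosomes it ran from 0.471 on the X chromosome to 0.829 on chromosome 7. Bins share the libraries, and gene density, base composition and mappability differ between them. Their part in the relation was not tested.

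The distant DRIP peaks followed the same regional order, though less closely. Their count per bin had a rho of 0.494 with the RNAPII count, or 0.313 without bins empty of both lists. Within chromosomes it ran from 0.271 on the X chromosome to 0.629 on chromosome 7. Per Mb of territory over 5 kb from RNAPII, distant DRIP peaks numbered 1.05 in bins without RNAPII, 1.52 with 1 RNAPII peak, 2.50 with 2 to 3, 3.84 with 4 to 7, 5.85 with 8 to 15 and 9.42 with 16 or more. The last value was 8.97 times the first. Counted over 50 kb from RNAPII, the order held, from 1.04 in bins without RNAPII to 4.74 per Mb in those with 16 or more, the latter from 108 peaks in 22.8 Mb. Of the distant peaks, 17.4% lay in bins without any RNAPII peak.

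**Figure D5:**
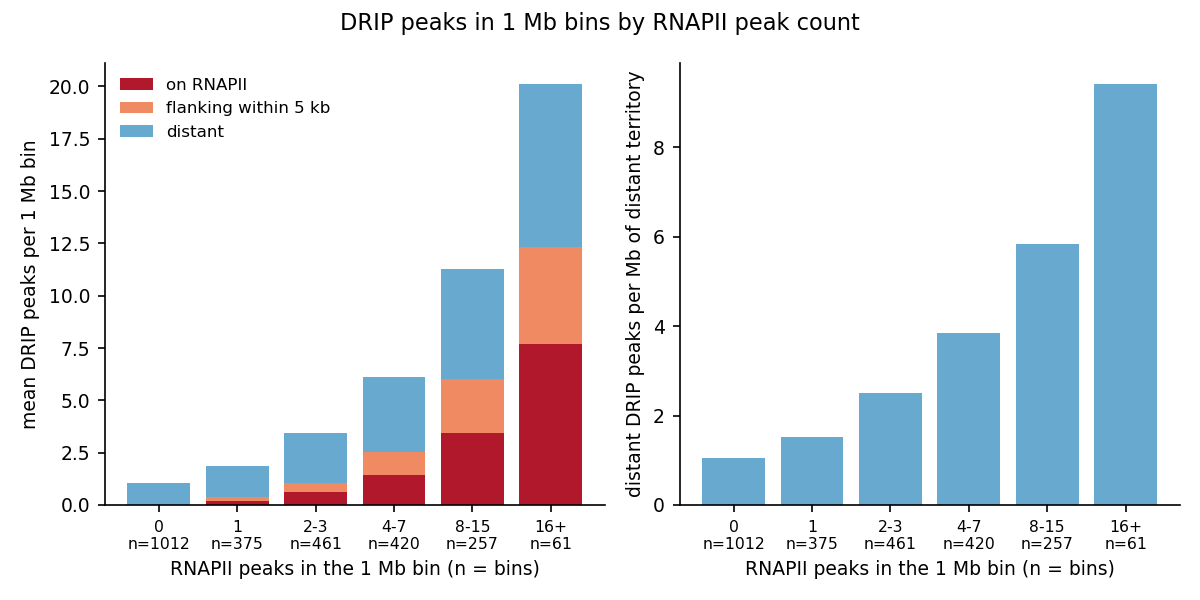
Left, mean DRIP peaks per 1 Mb bin by the number of RNAPII peaks in the bin, split by position. Right, distant DRIP peaks per Mb of territory over 5 kb from RNAPII in the same bins, which rises from 1.05 to 9.42; n is the number of bins.

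Some bins departed from this order. The bin with the most DRIP peaks of all, on chromosome 8 from 19 to 20 Mb, held 74 and no RNAPII peak. These 74 lay between 19683501 and 19989750, at least 3597 kb from RNAPII, with a median gap of 0.5 kb to the next DRIP peak, a median score of 81.5, and NELF on 3 of them. Other RNAPII-free bins rich in DRIP were on chromosome 1 from 85 to 86 Mb, with 32 peaks, and on chromosome 5 from 15 to 16 Mb, with 29. Without the bin on chromosome 8, distant DRIP in RNAPII-free bins was 0.978 per Mb and both rho values moved by less than their intervals.

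In the bins with the most RNAPII, DRIP was also abundant. On chromosome 17 the bin from 34 to 35 Mb held 35 RNAPII and 33 DRIP peaks, and that from 35 to 36 Mb held 32 of each. On chromosome 10, from 80 to 81 Mb, 27 RNAPII peaks, a count reached by 3 bins, met 49 DRIP peaks, of which 16 lay on RNAPII, 6 flanked it and 27 were distant. The other bins with 27, starting at 52 Mb on chromosome 7 and 51 Mb on chromosome 11, held 31 and 24 DRIP peaks. The named bin on chromosome 10 was also among those with the most DRIP. A further bin named for its DRIP, on chromosome 11 from 100 to 101 Mb, held 26 RNAPII and 45 DRIP peaks. That DRIP count was reached by 2 bins. The other, starting at 117 Mb on chromosome 11, held only 6 RNAPII peaks, and 38 of its 45 DRIP peaks were distant. The most RNAPII peaks in a bin without DRIP were 7, in 3 bins, on chromosome 2 from 57 to 58 Mb and from 144 to 145 Mb and on chromosome 12 from 60 to 61 Mb.

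DRIP peaks also stood close to each other where RNAPII was near. Another DRIP peak lay within 1 kb of 58.8% (56.8 to 60.8%) of those on RNAPII, 50.4% (47.9 to 52.8%) of flanking and 24.9% (23.8 to 26.0%) of distant ones. Of the distant DRIP peaks, 58.4% (57.1 to 59.6%) had no other DRIP peak within 10 kb, against 19.5% (17.9 to 21.1%) on RNAPII. The DRIP list holds 499 joins between touching peaks, which were kept as separate peaks here. Their part in these shares was not separated.

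Chromosomes differed in density more than in the position of DRIP. DRIP ran from 1.04 peaks per Mb on the X chromosome to 10.1 on chromosome 11, and RNAPII from 0.887 to 6.16 on the same 2 chromosomes. Over the 20 chromosomes the rho of both densities was 0.887. The share of DRIP peaks on RNAPII was lowest on the X chromosome, 14.1% (9.67 to 20.2%) of 170, and highest on chromosome 16, 36.4% (30.8 to 42.4%) of 261, and its rho with RNAPII density was 0.205. The ratio of DRIP to RNAPII peaks was 0.822 on chromosome 13 and 1.70 on chromosome 5.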

How the data were processed

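Occupancy was measured by ChIP-seq of RNAPII, NELF-A and NELF-B and by DRIP-seq. The aligner was BWA and the build mm9, per the submitters' processing notes. How peaks were called and whether an input was used is not given in the sources used here. Each deposited list gives positions and 1 whole-number score per peak with no stated unit. Depth is unknown. Peaks were taken as listed, 1-based, on a 250 bp grid except 1 DRIP peak on the X chromosome.

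Distances ran from edge to edge. Shares carry 95% Wilson intervals and medians 95% order-statistic intervals, both over peaks, or over bins for shares of bins. For RNAPII bases under DRIP and cover per kb, Wilson intervals over 250 bp cells decided whether an alternative moved the value. Neighbouring cells of 1 peak are not independent, so those intervals are too narrow. Cover per kb was counted in 250 bp cells between the first and last listed base of each chromosome, and peaks were put into 1 Mb bins by their centre. The code (Python 3.11.15, numpy 2.4.6, scipy 1.17.1) was checked on simulated data. Alternatives changed the overlap rule, score limit, peak width, touching peaks, chromosomes, flank width, distance measure and bins. For rho, an interval from Fisher's transformation decided whether an alternative moved it.

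Named sites followed a fixed rule: the 3 highest-score DRIP peaks per position class, 5 RNAPII peaks each without DRIP within 5 kb, with most covered bases and covered whole, and 3 bins each with most DRIP, most RNAPII, and most of 1 list without the other. Of the 5 covered whole, the text gives those on chromosomes 17 and 15. The other 3 lie under the 69750 bp DRIP peak on chromosome 11. Members and lists were chosen with earlier results of these data known. Gene names, planned for an annotation in mm9, were not used.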

Additional observations from a re-analysis of the deposited data

How the results depend on the processing

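With 1 list per target no replicate could be left out. No paired analysis was possible, because the 2 libraries that the RNAPII and DRIP titles name cannot be told apart in their lists. How they were combined is not stated. Of 109 values recomputed under alternatives, 54 stayed within the interval of the reported value and 55 moved. Some of the 54 could not move by construction. These include the distant share under the 50% and 1000 bp overlap rules, and covered bases when touching peaks were merged. The cause was not tested beyond what each setting changes by construction. Requiring 50% of the shorter peak put 20.1% of DRIP peaks on RNAPII and 19.4% flanking, and gave DRIP at 19.9% of RNAPII peaks and 20.9% of RNAPII bases and NELF-A at 51.2% of DRIP on RNAPII. Counting peaks within 1000 bp as overlapping gave 31.2%, 8.31%, 30.6% of RNAPII peaks, and NELF-A at 73.7% of DRIP on RNAPII and 4.63% of distant DRIP. With only the upper 50% of every list by score kept, 31.0% of DRIP peaks were on RNAPII, 11.8% flanking and 57.2% distant. DRIP then overlapped 30.4% of RNAPII peaks and 23.7% of their bases, and NELF-A 4.25% of distant DRIP. Median scores were 153 on RNAPII and 81 distant, widths 1.75 and 1 kb, cover 236.7 bp per kb inside, 120.3 within 1 kb and 1.03 beyond 100 kb, and rho over bins 0.653 and, for distant DRIP, 0.392.

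With every peak set to 500 bp, 5.83% of DRIP peaks were on RNAPII, 31.1% flanking and 63.0% distant, and DRIP overlapped 7.54% of RNAPII peaks and 4.42% of their bases. NELF-A overlapped 40.9% of DRIP on RNAPII and 1.34% of distant DRIP. The median score on RNAPII was 81, and cover was 43.9 bp per kb inside, 51.9 within 1 kb and 0.764 beyond 100 kb. Merging touching peaks gave 15.6% flanking, 61.7% distant and a median score of 115 on RNAPII. A flank of 2 kb gave 11.1% flanking and 65.9% distant, and one of 10 kb 21.6% and 55.3%. Measured from centre to centre, DRIP within 500 bp of an RNAPII centre had a median score of 78 and width of 1 kb. Spearman's rank correlation over bins for all and distant DRIP was 0.619 and 0.399 in bins of 500 kb, 0.764 and 0.563 in bins of 2 Mb, and 0.614 and 0.313 without bins empty of both lists. By covered bases the rho of distant DRIP was 0.458. Without the X chromosome cover beyond 100 kb was 1.25 bp per kb. Leaving out regions of extra-high signal, and the densest RNAPII-free bin, were chosen after seeing the data. Without those regions DRIP covered 21.2% of RNAPII bases, or 212.1 bp per kb.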
